A study of Mus musculus with 15 samples.

Results

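This report compares open chromatin in microglia of IRF8KO mice with that in WT mice at postnatal day 9 (P9). The comparison uses 5 of the 15 ATAC-seq libraries of the series, 3 from IRF8KO and 2 from WT. The same sites were also read at postnatal day 14 (P14), in 2 IRF8KO and 2 WT libraries. They were further read in 2 libraries of WT microglia at 10 months, which are titled as controls for other microglia of the series. ATAC-seq maps accessible DNA with a transposase that inserts sequencing adapters where chromatin is open. All 5 libraries came from FACS-sorted microglia of C57BL/6 mice with no treatment listed, isolated from the brain without enzymes and tagmented as nuclei with the Nextera kit. The labels name the genotype only as IRF8KO or WT. Which stretch of Irf8 is deleted, and whether each library is a mouse of its own, are not given in the sources used here. The unit described is the site, a position where a peak of at least 1 of the 5 lists has its summit, the point of highest signal. The lists gave 228943 sites on chromosomes 1 to 19 and X. A site was present in a library with a summit within 200 bp and missing with none within 400 bp. A site was tested if it was present in all 3 IRF8KO or in both WT libraries, which held for 121732 sites. It was gained if present in all 3 IRF8KO and missing from both WT libraries, and lost in the opposite case. By this rule 14741 sites were gained (12.1% of those tested) and 8642 were lost (7.1%). Missing means that no peak was listed there, not that the DNA was closed.

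IRF8 is a transcription factor of the interferon regulatory factor family that is needed for normal microglia and for several other myeloid lineages. It binds DNA poorly by itself and is recruited with the ETS factor PU.1 to composite elements, in which an ETS core stands next to an IRF motif, or with other IRF proteins to interferon-stimulated response elements. Microglia arise from yolk sac macrophages and keep open the enhancers of genes such as Sall1 and P2ry12, while macrophages at the borders of the brain express genes such as Mrc1, Cd163 and F13a1. In these bulk libraries, fewer cells of a type and less accessibility per cell cannot be told apart.

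Promoters were a small minority of the gained and lost sites, and a few of them carried sites that rank high in every library of 1 genotype. The sequences shown are those of promoters in which such a site has its summit, since there the peak and the letters can be read together. They run 5′ to 3′ along the gene, from 250 bases before the RefSeq start to 30 after it, in the GRCm38.p6 assembly. Capitals mark matches, on either strand, to a short set of motifs: EICE, the composite element of PU.1 and IRF8 (GGAANNGAAA), ISRE, the interferon-stimulated response element (GAAANNGAAA), IECS, a composite of the reverse order (GAAANNGGAA), PU.1 (GAGGAAGT), AP-1 (TGANTCA), C/EBP (TTGCATAA and variants) and MEF2 (TATTTTTA and variants). In 4 promoters the site was lost. Phf11d encodes a PHD finger protein, and its window lies on the minus strand at chr14:59365461-59365740. Gimap1 encodes a GTPase of the immunity-associated family (plus strand, chr6:48738797-48739076). Ly86 encodes MD-1, the partner of the receptor CD180 (plus strand, chr13:37345095-37345374). E2f2 encodes a transcription factor of the cell cycle (plus strand, chr4:136180532-136180811). The E2f2 start used here lies inside the gene body (chr4:136172274-136196057), so it is an alternative start and not the gene's outer end. Of 14 tested E2f2 sites, 3 were gained and 1 was lost.
Phf11d: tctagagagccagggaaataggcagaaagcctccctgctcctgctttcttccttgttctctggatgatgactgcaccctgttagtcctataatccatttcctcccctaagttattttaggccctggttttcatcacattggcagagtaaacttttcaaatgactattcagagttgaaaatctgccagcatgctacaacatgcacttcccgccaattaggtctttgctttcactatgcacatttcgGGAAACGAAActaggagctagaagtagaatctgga
Gimap1: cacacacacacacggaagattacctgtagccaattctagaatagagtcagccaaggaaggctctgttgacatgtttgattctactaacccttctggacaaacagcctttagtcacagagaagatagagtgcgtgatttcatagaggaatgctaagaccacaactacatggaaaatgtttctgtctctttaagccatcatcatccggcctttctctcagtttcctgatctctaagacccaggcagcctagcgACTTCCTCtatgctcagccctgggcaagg
Ly86: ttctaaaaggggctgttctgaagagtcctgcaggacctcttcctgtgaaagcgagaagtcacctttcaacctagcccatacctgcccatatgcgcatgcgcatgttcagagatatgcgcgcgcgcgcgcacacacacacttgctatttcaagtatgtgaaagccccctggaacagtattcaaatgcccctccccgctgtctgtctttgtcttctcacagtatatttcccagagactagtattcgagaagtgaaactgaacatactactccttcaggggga
E2f2: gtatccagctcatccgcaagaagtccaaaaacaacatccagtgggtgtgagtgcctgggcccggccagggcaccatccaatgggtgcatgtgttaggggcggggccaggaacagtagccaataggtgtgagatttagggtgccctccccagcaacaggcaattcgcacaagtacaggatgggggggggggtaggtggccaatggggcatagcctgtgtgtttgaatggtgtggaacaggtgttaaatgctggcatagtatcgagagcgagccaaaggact
In the other 3 the site was gained. Vnn3 encodes a pantetheinase (plus strand, chr10:23851212-23851491). Mmp8 encodes neutrophil collagenase (plus strand, chr9:7558179-7558458). Sirpb1b encodes a signal-regulatory protein, a myeloid surface receptor (minus strand, chr3:15575036-15575315).
Vnn3: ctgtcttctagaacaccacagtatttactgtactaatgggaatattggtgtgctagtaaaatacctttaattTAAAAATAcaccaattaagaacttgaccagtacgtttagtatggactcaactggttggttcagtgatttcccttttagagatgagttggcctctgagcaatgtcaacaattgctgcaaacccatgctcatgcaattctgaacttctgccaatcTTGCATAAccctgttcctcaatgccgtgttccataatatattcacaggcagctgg
Mmp8: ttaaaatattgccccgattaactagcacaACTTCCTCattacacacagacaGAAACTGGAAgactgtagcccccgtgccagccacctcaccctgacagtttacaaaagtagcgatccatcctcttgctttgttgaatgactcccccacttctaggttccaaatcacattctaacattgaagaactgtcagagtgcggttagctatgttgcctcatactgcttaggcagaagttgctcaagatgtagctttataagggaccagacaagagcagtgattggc
Sirpb1b: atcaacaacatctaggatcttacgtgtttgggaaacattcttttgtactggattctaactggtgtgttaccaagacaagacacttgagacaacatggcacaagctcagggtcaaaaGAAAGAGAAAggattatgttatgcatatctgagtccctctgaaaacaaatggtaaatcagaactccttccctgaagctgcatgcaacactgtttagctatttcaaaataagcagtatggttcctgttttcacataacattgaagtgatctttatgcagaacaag

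The Phf11d promoter held a peak in both WT libraries and in no IRF8KO library. Peaks were ranked by −log10 p within their own list, rank 1 being the best. Its summit lay 38 bp after the start and ranked 3997 and 3637 in the WT libraries, with fold enrichments of 23.04 and 25.97. Fold enrichment is the authors' value for a peak, read only within its own list. The EICE match GGAAACGAAA begins 5 bases before the start, so it lies under this peak. The Gimap1 peak ranked 21096 and 22557 in WT, 8 bp after the start, and a PU.1 match begins 1 base after the start. At Ly86 the peak ranked 15817 and 16912 in WT, 2 bp before the start, and none of the capitalised motifs matched in the printed bases. The E2f2 peak ranked 16131 and 8731 in WT, 176 bp before the internal start, and its printed bases hold no capitalised match either. The Vnn3 peak ranked 9611, 9230 and 10168 in the IRF8KO libraries, 42 bp before the start, with a C/EBP match TTGCATAA that begins 25 bases before it. The Mmp8 peak ranked 10287, 8733 and 10758, 31 bp before the start, and the IECS match GAAACTGGAA begins 199 bases before it. The Sirpb1b peak ranked 17058, 13640 and 25304, 12 bp before the start, and its ISRE match begins 134 bases before it. A second site near Sirpb1b was gained at ranks 15186, 15291 and 15977. In all 7 promoters every library of the other genotype had no summit within 400 bp. A match is a run of letters and not evidence of binding.

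Across all RefSeq promoter windows of 300 bases with a tested site, motif shares were read for gained, lost and other sites. Of these windows, 109 held a gained site and 177 a lost one, and 9589 held another tested site. The AP-1 motif was found in 14.7% of windows with a gained site, 5.08% with a lost site and 4.21% with another tested site. The PU.1 motif was found in 11.0%, 1.69% and 3.62%. MEF2 letters were found in 6.42%, 1.69% and 1.56%, which is 7 windows with a gained site and 3 with a lost one. The EICE was found in 1 window with a gained site and 6 with a lost site, or 0.917% and 3.39%, against 2.21% of windows with another tested site. The ISRE was found in 6.42%, 1.69% and 3.09%. C/EBP letters were found in 3.67%, 0.565% and 1.13%, and the IECS in 3.67%, 1.13% and 3.0%. Other motifs were also searched, and their shares are not given here. Over all 21045 windows the shares were 7.04% for AP-1, 3.15% for PU.1, 3.54% for MEF2, 2.55% for the EICE and 3.38% for the ISRE. In the 11170 windows without a tested site, AP-1 was found in 9.42%, PU.1 in 2.69% and MEF2 in 5.24%. EICE and PU.1 letters can overlap ETS sites, and windows of 1 gene can overlap, so these are shares without a test.

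Libraries of the same genotype agreed better than libraries of different genotypes among their best peaks. The lists held 149563 and 162502 summits in WT and 157258 to 158127 in IRF8KO. For the 30000 best peaks of each list, the Jaccard index, the number of shared sites over the number in either list, was 0.807 between the WT libraries, 0.830 to 0.838 between IRF8KO libraries and 0.599 to 0.606 between genotypes. For all peaks it was 0.554, 0.706 to 0.727 and 0.475 to 0.553. Peak strength did not overlap between the genotypes. The −log10 p at rank 30000 was 39.07 and 54.3 in WT and 78.35, 73.4 and 80.63 in IRF8KO (exact two-sided permutation test, p = 0.1, the smallest p that 3 against 2 libraries can give). The median width of the 30000 best peaks was 555 and 565 bp in WT and 596, 605 and 610 bp in IRF8KO (exact permutation test, p = 0.1). The part that this difference in strength plays in the counts of gained and lost sites was not tested. No site was tested singly, since no exact test with so few libraries can reach significance.

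Marker genes were examined to check that the libraries were microglial. Of 9 microglia markers, 6 and 6 in WT and 5, 5 and 6 in IRF8KO had a peak among the 30000 best within 1 kb of a gene end. P2ry12 and Gpr34, which mark microglia, had none in any library, so the lack of such a peak says little about a cell type. None of the 4 monocyte, 5 neutrophil and 4 lymphocyte markers had one in any library, and this included Ccr2, Ly6c2, S100a8, Mpo and Cd3e. Of 8 markers of border-associated macrophages, 1 and 1 had one in WT and 3, 3 and 3 in IRF8KO, and Mrc1, Cd163, Lyve1, F13a1 and Stab1 had none in any library. Neuron, astrocyte, oligodendrocyte and endothelial lists each had 0 or 1 such marker in any library. At Irf8 itself the site at the promoter ranked 15373 and 14957 in WT and 12093, 15740 and 17738 in IRF8KO, with overlapping ranks. Irf8 had 39 tested sites, of which 3 were gained and 3 lost, and the highest rank number of each over the libraries that hold it was between 88808 and 139997. Since the deleted stretch is not known, these peaks do not check the genotype.

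Most gained and lost sites were weak peaks, and the best peaks were largely shared. For each site the worst rank is the highest rank number over the libraries that hold it. Of sites in all 3 IRF8KO libraries with a worst rank up to 10000, 51 of 8216 were gained (0.621%). This share was 1.55% for worst ranks above 10000 and up to 20000, 3.17% up to 30000, 5.64% up to 50000, 13.7% up to 100000 and 31.2% beyond. Of sites in both WT libraries with a worst rank up to 10000, 66 of 8501 were lost (0.776%), and the share grew through the same ranges to 23.0%. Up to rank 20000 the lost share was the higher, and beyond it the gained share was. A gained site in IRF8KO is missing from only 2 libraries, whereas a lost site must be missing from 3.

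**Figure D1:**
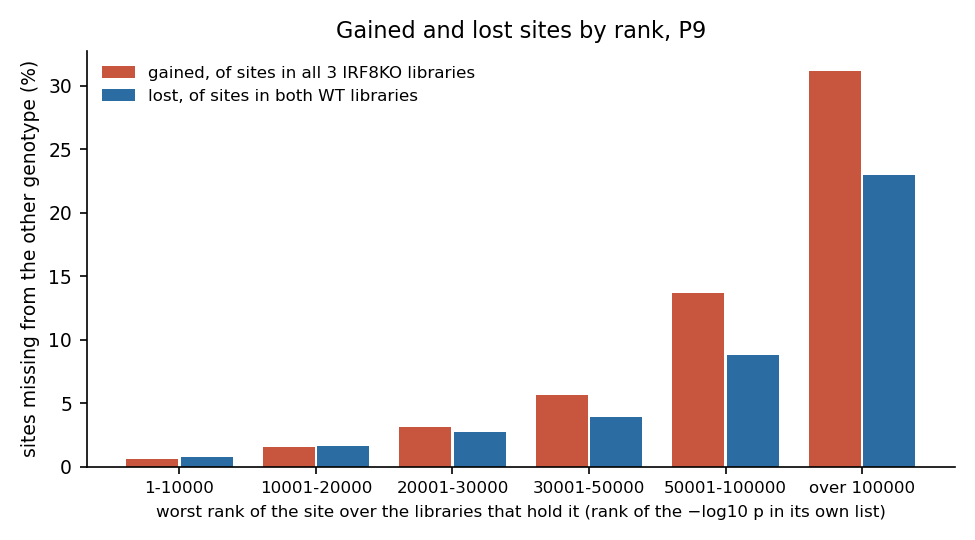
Share of sites present in every library of 1 genotype that were missing from the other (vertical axis, %), by worst rank of the site (horizontal axis). Red bars are gained sites of those in all 3 IRF8KO libraries and blue bars lost sites of those in both WT libraries; shares run from 0.621% and 0.776% in the best range to 31.2% and 23.0% beyond rank 100000.

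Sites were called strong where they fell among the 30000 best peaks in every library of the group that holds them. Of 30799 tested strong sites, 434 were gained (1.41%) and 426 were lost (1.38%). The excess of gained over lost sites seen with all peaks was therefore absent among the strong ones. With all peaks it also turned when either WT library was left out. There were 19221 gained and 25290 lost without WT replicate 1, and 21438 gained and 42142 lost without WT replicate 2. A lost call then needs presence in the 1 remaining WT library only. Of all sites, 34412 were present only in WT replicate 1 and 17397 only in WT replicate 2. The rule itself thus raises the lost count, and this turn is not read as a result. Of the 24559 sites strong in all 3 IRF8KO libraries, 18831 were strong in both WT libraries and 3258 were present in both WT libraries but strong in neither. Of the 25071 sites strong in both WT libraries, 3106 were present in all 3 IRF8KO libraries and strong in none. A shift in rank with the peak kept was thus more frequent than its full absence.

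Strong gained and lost sites lay away from the ends of genes. A gene end, start or finish, was within 1 kb of 22 strong gained sites (5.07%) and 9 strong lost sites (2.11%), against 40.2% of the 18831 sites strong in all 5 libraries. Inside a gene and over 1 kb from its ends lay 44.9% of strong gained and 55.4% of strong lost sites, against 35.4%. Over 50 kb from any gene lay 21.4% and 17.1%, against 6.28%. Over all 30799 tested strong sites, these shares were 29.5%, 41.2% and 8.23% in the same order. The gained share inside genes was thus close to that of all tested strong sites. The median distance to a gene end was 27.5 kb for strong gained and 24.8 kb for strong lost sites. It was 3.7 kb for sites strong in all 5 libraries and 7.9 kb for all tested strong sites. Exons and introns were not told apart. The libraries as wholes did not separate by location: the share of the 30000 best peaks this close to a gene end was 34.5% and 33.5% in WT and 33.3%, 33.8% and 32.6% in IRF8KO (exact two-sided permutation test, p = 0.4). The strong gained and lost peaks were narrower than the shared ones, with median widths of 479 and 451 bp against 624 bp. Median fold enrichment was 18.5 for strong gained sites in the IRF8KO lists and 15.07 for strong lost sites in the WT lists. For sites strong in all 5 libraries it was 16.63 over all 5 lists. Over the 30000 best peaks of each list it was 12.97 and 15.04 in WT and 16.73, 15.92 and 16.96 in IRF8KO. Fold and width of gained and lost sites come from different lists, so the 2 kinds are not compared with each other.

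**Figure D2:**
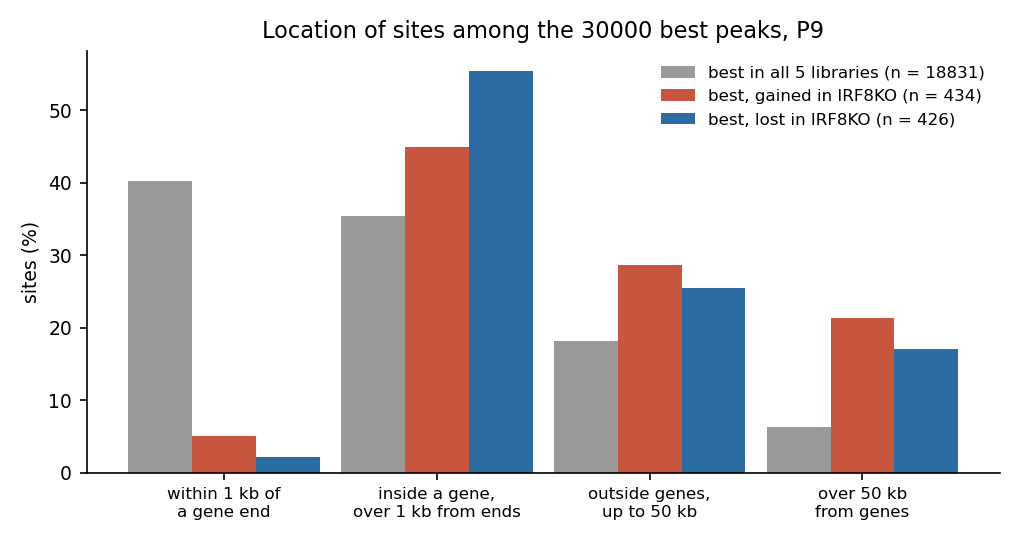
Location of sites among the 30000 best peaks (bars, % of each set) for 18831 sites strong in all 5 libraries (grey), 434 gained in IRF8KO (red) and 426 lost (blue). Near gene ends the grey bar is 40.2% and the others are 5.07% and 2.11%. The share over all 30799 tested strong sites, not drawn, is 29.5%.

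Most strong gained and lost sites had no other such site nearby. Of the 434 strong gained sites, 52 (12%) had another strong gained site within 50 kb and 5 had a strong lost site there. Of the 426 strong lost sites, 55 (12.9%) had another strong lost site within 50 kb and 4 had a strong gained one. Assigned to the nearest protein-coding gene within 100 kb, strong gained sites belonged to 349 genes and strong lost sites to 337, and 4 genes had both. At least 2 strong gained sites were found at 28 genes and at least 2 strong lost sites at 31. By chromosome, strong gained sites ran from 0.515% of tested strong sites on the X to 2.52% on chromosome 18, and strong lost sites from 0.485% on chromosome 17 to 2.04% on chromosome 3.

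The best ranked gained sites lay near genes of varied function and stood near the top of each IRF8KO list. The foremost lay 3.9 kb from Serpinb2, which encodes plasminogen activator inhibitor 2, at chr1:107496806-107497206. It ranked 1183, 520 and 591 in the IRF8KO libraries, with fold enrichments of 26.2, 27.9 and 27.8, and the nearest WT summit was 15.31 kb away. Serpinb2 had 9 tested sites, of which 9, 9 and 9 were present in IRF8KO and 1 and 1 in WT, and 3 of its 8 gained sites were strong. A site 14.3 kb from Sdr16c5, a retinol dehydrogenase gene, ranked 1657, 1287 and 883, at chr4:3981407-3981807. A site 9.8 kb from the olfactory receptor gene Olfr985 ranked 1998, 1071 and 2264, and all 3 tested sites of this gene were gained. A site inside Dlgap1, which encodes a postsynaptic scaffold, ranked 2248, 2674 and 1784. It had a WT summit 0.77 kb away. A site 3.2 kb from Samsn1, an adaptor of blood cells, ranked 2933, 870 and 2206. A site 54.1 kb from Nt5e, which encodes the AMP-hydrolysing ectoenzyme CD73, ranked 2942, 1694 and 2571. Of 9 tested Nt5e sites, 9, 9 and 9 were present in IRF8KO and 2 and 2 in WT. The other 6 of the 12 best lay near Gm40011, Gm9733, H2-M10.4 and Nrap or had no gene within 100 kb, with worst ranks of 2294 to 4750.

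The best ranked lost sites also lay near genes of varied function and stood near the top of both WT lists. The foremost lay 9.3 kb from Knstrn, a kinetochore gene, at chr2:118804508-118804908, and ranked 531 and 576 in the WT libraries, with fold enrichments of 30.9 and 35.0. The nearest IRF8KO summit was 9.45 kb away. A site inside P3h2, which encodes a collagen prolyl hydroxylase, ranked 850 and 922, at chr16:26041307-26041707. P3h2 had 21 tested sites, of which 21 and 21 were present in WT and 7, 5 and 7 in IRF8KO. A site inside Lrrc4c, the gene of a netrin-G ligand, ranked 1045 and 517. A site 13.1 kb from the sulfotransferase gene Sult1c1 ranked 1103 and 1034, and 4 of its 5 tested sites were lost. Both Rasgrf1 and Rasgrf2, which encode exchange factors of Ras, were among the genes of the 12 best sites. The Rasgrf1 site ranked 1163 and 685 and the Rasgrf2 site 1854 and 2306. Of 11 tested Rasgrf1 sites 9 were lost, 3 of them strong. Of 9 tested Plppr4 sites 8 were lost, 3 of them strong, and its best site ranked 891 and 1668. The remaining sites lay near Lsm14a, Enah, Mrap2 and Lhfpl3 or had no gene within 100 kb, with worst ranks of 2002 to 2414. All 5 tested Mrap2 sites were lost.

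**Figure D3:**
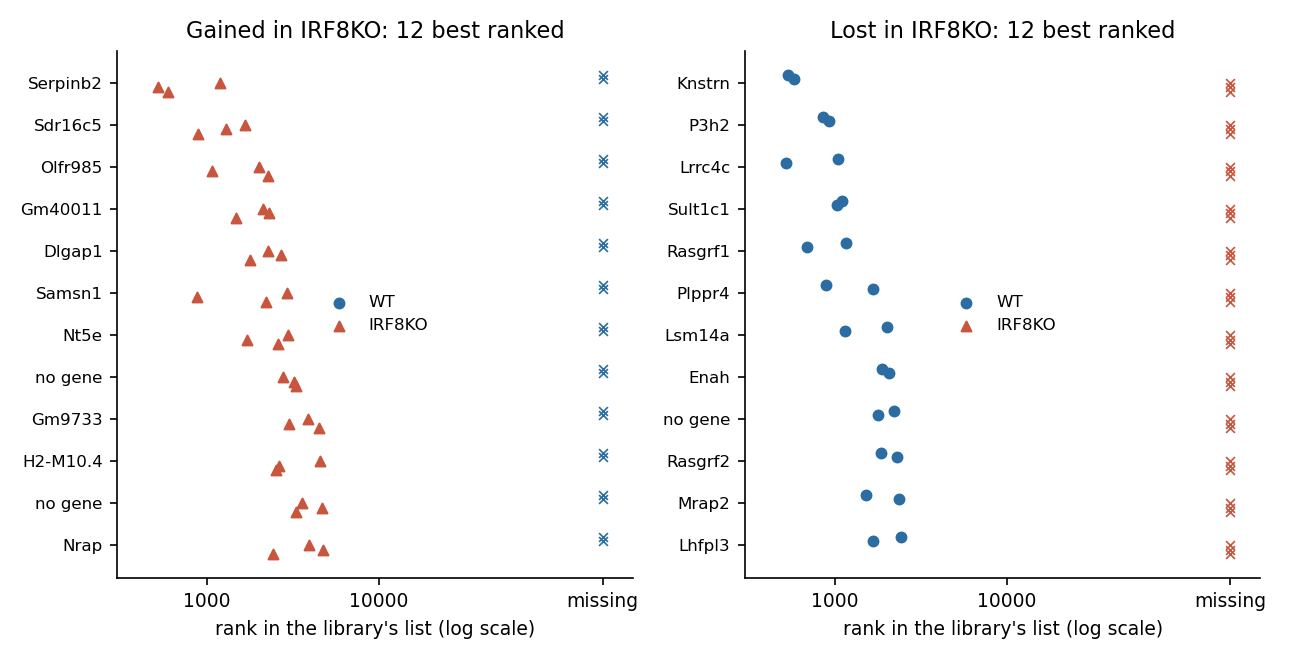
Ranks of the 12 best ranked gained (left) and lost (right) sites in each P9 library, on a log scale with the best ranks at the left. Blue circles are WT and red triangles IRF8KO libraries, and crosses mark libraries without a summit within 400 bp; gained sites have worst ranks of 1183 to 4750 and lost sites of 576 to 2414.

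Some genes gained or lost many sites along their length. The most gained sites belonged to Runx2, which encodes a runt-family transcription factor. It had 46 tested sites, with 21 and 20 present in WT and 44, 45 and 45 in IRF8KO, and 21 were gained, 1 of them strong at ranks 21040, 26166 and 24601. Itpr1, the gene of an inositol trisphosphate receptor, followed with 20 of 60 sites gained. Trps1, a GATA-type zinc finger gene, gained 18 of 37, with 16 and 19 present in WT and 36, 36 and 36 in IRF8KO. Filip1 gained 14 of 24 and Myo10, an unconventional myosin gene, 16 of 37. Rnf150, Rad51b, Pde4d, Hdac9 and Lpp gained 16 to 18 sites each, of 43 to 91 tested. The most lost sites belonged to Magi1, a scaffold gene, with 26 of 64 lost and 62 and 63 present in WT against 33, 31 and 27 in IRF8KO. Kcnma1, which encodes a calcium-activated potassium channel, lost 21 of 31, with 30 and 31 present in WT and 10, 7 and 7 in IRF8KO. Tiam1, an exchange factor of Rac, lost 20 of 59, 4 of them strong. Cacna1e, a voltage-gated calcium channel gene, lost 13 of 17, 3 of them strong, and Tenm4 lost 17 of 25. Plxdc2 lost 18 of 37, Ptprm 17 of 42 and P3h2 13 of 21, while Frmd4a lost 16 of 82 and gained 5. Over all genes, 11.9% of tested sites were gained and 6.67% were lost. Long genes hold more sites, so these counts describe the genes and do not rank them by effect.

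Sall1, a zinc finger factor that marks microglia, lost nearly all of its sites. Of its 24 tested sites, 24 and 24 were present in WT and 3, 1 and 1 in IRF8KO, and 20 were lost. The lost sites extended from 90.3 kb below the gene's lower end to 107.4 kb above it, and only 2 lay inside the gene. The farthest of these, the best of them, ranked 8531 and 13325 in WT. A site at the gene's upper end, 16.5 kb from its lower end, ranked 16234 and 16879 in WT and was present in 1 IRF8KO library at rank 157025, so it was not called lost. Colec12, a scavenger receptor gene, showed the opposite pattern over its whole length. Of 16 tested sites, 3 and 4 were present in WT and 16, 16 and 16 in IRF8KO, and 12 were gained. The best of these ranked 4400, 6234 and 4723, 27.3 kb from the gene's lower end.

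**Figure D4:**
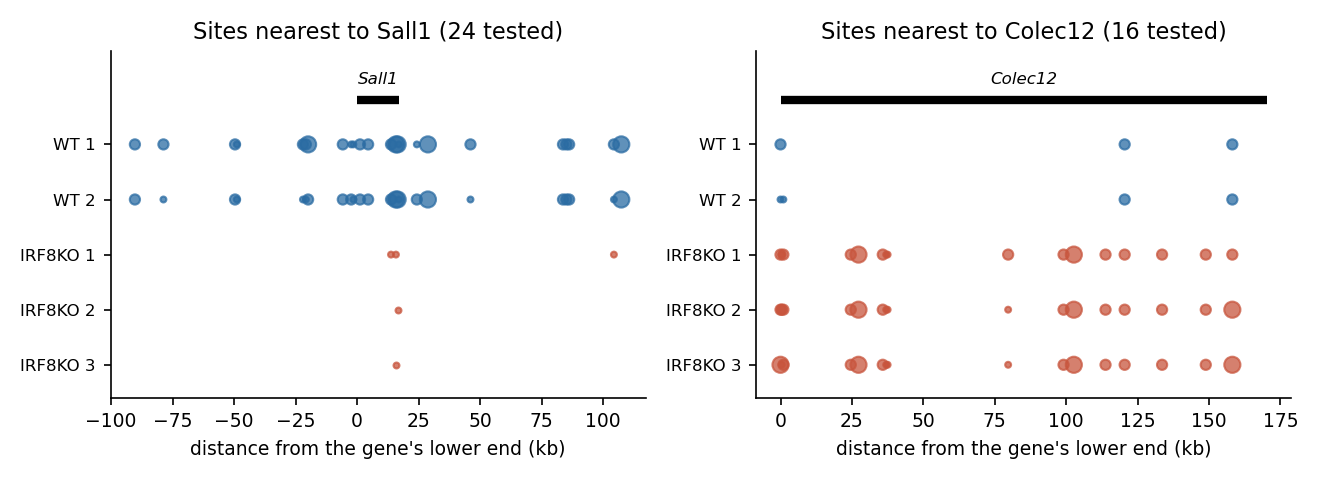
Tested sites nearest to Sall1 (left, 24) and Colec12 (right, 16) in each P9 library, by distance from the gene's lower end in kb; the black bar is the gene. Large, medium and small points mark ranks up to 30000, up to 100000 and beyond; Sall1 sites fill the WT lines and Colec12 sites the IRF8KO lines.

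A larger share of sites was gained at genes of border-associated macrophages than over all genes. Over all genes, 11.9% of tested sites were gained and 6.67% lost. Of 142 tested sites at the 14 genes of this list, 50 were gained (35.2%) and 5 lost (3.52%). In the libraries, 79 and 84 of them were present in WT and 136, 136 and 137 in IRF8KO. The share gained was above that of all genes under each of the 8 alternatives run, and ran from 11.1% to 38.1%. The lowest value came with presence by the 30000 best peaks, where the share over all genes was 1.29%. Dab2, an endocytic adaptor, gained 12 of 35. The mannose receptor gene Mrc1 gained 8 of 22, the haemoglobin scavenger receptor gene Cd163 gained 8 of 15, and F13a1, which encodes the A chain of coagulation factor XIII, gained 8 of 15. Clec12a, a C-type lectin gene, gained 5 of 7. Strong gained sites were found at F13a1 (ranks 7478, 9815 and 6582), Ms4a7 (8990, 8033 and 8335), Cd163 (12385, 12929 and 11245) and Cp (27006, 26031 and 18109). At Lyve1, Pf4, Cbr2 and Stab1 no site was gained or lost. Whether border macrophages in the sorted cells have a part in these counts was not tested.

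Microglial identity genes had a smaller gained share than all genes, and their larger lost share rested on Sall1. Of 300 tested sites at 23 genes, 19 were gained (6.33%) and 38 lost (12.7%), and 20 of the lost ones were at Sall1. Without Sall1, 18 of 276 sites were lost (6.52%), close to the 6.67% of all genes, and 6.88% were gained. Without WT replicate 2 the lost share was 17.6%, against 23.6% over all genes in the same setting. P2ry12, the purinergic receptor gene, lost 3 of 11, with a strong one at ranks 24531 and 25009. Sall3, a relative of Sall1, had 3 of 21 sites gained and 1 lost, with a strong gained site at ranks 29417, 27014 and 23684. Cx3cr1, the fractalkine receptor gene, lost 3 of 15. Bin1 went the other way, with 5 of 29 gained and 0 lost. No site was gained or lost at Trem2, Siglech, Olfml3, Gpr34 or Sparc, and P2ry13 had no tested site. 

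Receptors for uptake and lipid carried many gained sites, concentrated in a few genes. Of 261 tested sites at complement and phagocytosis genes, 49 were gained (18.8%) and 7 lost (2.68%). Colec12 with 12 and Cd36, the gene of a fatty acid and lipoprotein receptor, with 11 of 17 held most of the excess: without both genes, 26 of 228 sites were gained (11.4%), near the 11.9% of all genes. At Cd36, 5 and 5 sites were present in WT and 17, 17 and 17 in IRF8KO, and the strong one ranked 20461, 8310 and 9694. Marco, another scavenger receptor gene, had a strong lost site at ranks 9579 and 10659. No site was gained or lost at C1qa, C1qb, C1qc or Itgb2. Of 268 sites at lipid handling genes, 43 were gained (16.0%) and 15 lost (5.6%). Strong gained sites stood near Apoc4 (ranks 4532, 3440 and 5209) and in Plin2, the lipid droplet coat gene (20471, 17185 and 11628). Apoe had none. Without Cd36, 12.7% of the lipid handling sites were gained. With the whole lists, both gained shares were above that of all genes under each alternative.

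Interferon response genes, many of which are known to carry IRF sites in their promoters, had no lost site. Of 104 tested sites at 24 genes, 14 were gained (13.5%) and 0 were lost (0.0%), against 11.9% and 6.67% over all genes. Lists were not matched to all genes for the rank or location of their sites. Within 1 kb of a gene end lay 6.53% of all lost sites and 20.3% of other tested sites. The part of location in the list shares was not tested. In the libraries, 83 and 86 of the 104 sites were present in WT and 104, 100 and 103 in IRF8KO. Sites were called lost here only when a WT library was left out, 4 of 114 without replicate 1 and 8 of 116 without replicate 2. All 3 tested sites at Oas3 were gained. Gbp5, a guanylate-binding protein gene, gained 2 of 11, 1 of them strong at ranks 20194, 26808 and 20119. At 13 genes, among them Isg15, Ifit2, Bst2, Ifih1 and Stat2, no site was gained or lost. The IRF family and partner list had 21 of 268 sites gained (7.84%) and 16 lost (5.97%). Irf2 gained 6 of 43, and its strong one ranked 19932, 13394 and 15662. Etv6, an ETS repressor gene, had sites of both kinds, with 5 gained and 6 lost of 58. Its strong gained site ranked 6233, 5878 and 6761, and its 2 strong lost sites had worst ranks of 25904 and 29683. Irf3, Irf5, Irf7 and Irf9 had none. Antigen presentation genes had 12 of 113 gained (10.6%) and 6 lost (5.31%), of which Nlrc5, the activator of MHC class I genes, had 1 gained and 3 lost of 11. Its gained site was strong, at ranks 21699, 23390 and 20523. With presence by the 30000 best peaks, the share over all genes was 1.29%. The gained shares of the IRF (2 of 88, 2.27%) and antigen presentation (1 of 36, 2.78%) lists were then above it, not below.

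The other lists of myeloid and general functions had smaller gained shares than those of border-associated macrophage, complement and lipid genes. Over all genes, 11.9% of tested sites were gained and 6.67% lost. The gained shares of the disease-associated, TGF-beta, inflammatory and immediate early lists were near that value. Those of the myeloid factor and disease-associated lists fell below that of all genes with presence by the 30000 best peaks. In that setting the share over all genes was 1.29%. The inflammatory (3 of 60, 5.0%) and lysosome (3 of 73, 4.11%) lists, which were below all genes with all peaks, were then above it. Myeloid transcription factors had 97 of 657 sites gained (14.8%) and 38 lost (5.78%). Runx2 supplied 21 of the gained ones, and without it 12.4% were gained. Mef2a gained 8 of 32 with 1 strong site at ranks 20733, 20801 and 22632, Bhlhe40 gained 8 of 25, and Bach2 had 7 gained and 10 lost of 90, with 1 strong lost site at ranks 22111 and 19958. Disease-associated microglia genes had 43 of 328 gained (13.1%) and 18 lost (5.49%), with none strong. Ank gained 10 of 28 and Serpine2 lost 6 of 14. TGF-beta genes had 39 of 374 gained (10.4%) and 25 lost (6.68%), both near the shares over all genes. Ltbp1, which encodes a latent TGF-beta binding protein, gained 13 of 28, and the receptor gene Tgfbr2 lost 5 of 42. Inflammatory genes had 20 of 193 gained (10.4%) and 9 lost (4.66%). Strong gained sites were found near Cxcl1 (ranks 7861, 7006 and 10305) and Tnfaip3, while Il12b lost 4 of 13 and Il6 lost 2 of 8. Lysosome genes had 14 of 203 gained (6.9%) and 4 lost (1.97%), with strong gained sites at Ctsc and Atp6v0d2. Immediate early and stress genes had 26 of 231 gained (11.3%) and 9 lost (3.9%), of which Fosl2 had 7 of 13 gained. Cell cycle genes had 10 of 148 gained (6.76%) and 5 lost (3.38%).

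Lists of other cell types were read for the same sites, beside the 11.9% gained and 6.67% lost over all genes. The oligodendrocyte shares were near these, and the gained one stayed above that of all genes in only 4 of 8 alternatives. The lymphocyte gained share was below that of all genes with presence by the 30000 best peaks. Monocyte markers had 16 of 71 gained (22.5%) and 2 lost (2.82%). Itga4 gained 5 of 16, all 5 of them also gained at P14, and strong gained sites lay near F10 and Cd244a and a strong lost site at Vcan, at ranks 28418 and 19174. Neutrophil markers had 8 of 39 gained (20.5%), 3 of them at Mmp8, and 2 lost (5.13%). Lymphocyte markers had 9 of 48 gained (18.8%) and 2 lost (4.17%). Astrocyte markers had 18 of 69 lost (26.1%) and 3 gained (4.35%), with 63 and 64 of them present in WT and 48, 49 and 51 in IRF8KO. Of these 18, 10 were at the glutamate transporter gene Slc1a3, 5 at Slc1a2 and 3 at Aqp4. The Slc1a2 site ranked 20039 and 15973 in WT. Neuron markers had 11 of 109 gained (10.1%) and 13 lost (11.9%), endothelial and mural markers 8 of 102 gained (7.84%) and 12 lost (11.8%), and oligodendrocyte markers 10 of 81 gained (12.3%) and 5 lost (6.17%). Strong lost sites lay at Bcl11a (ranks 15138 and 22281) and Cdh5 (29202 and 28577). No peak among the 30000 best lay close to an end of Gfap, Rbfox3, Gad1, Cldn5, Olig2 or Sox10 in any library. For each of their cell types, 1 other marker of the check above had such a peak in at least 1 library. P2ry12, a microglia marker, had none in any, so these absences say little about a cell type. The part of other cells in these sites was not tested.

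**Figure D5:**
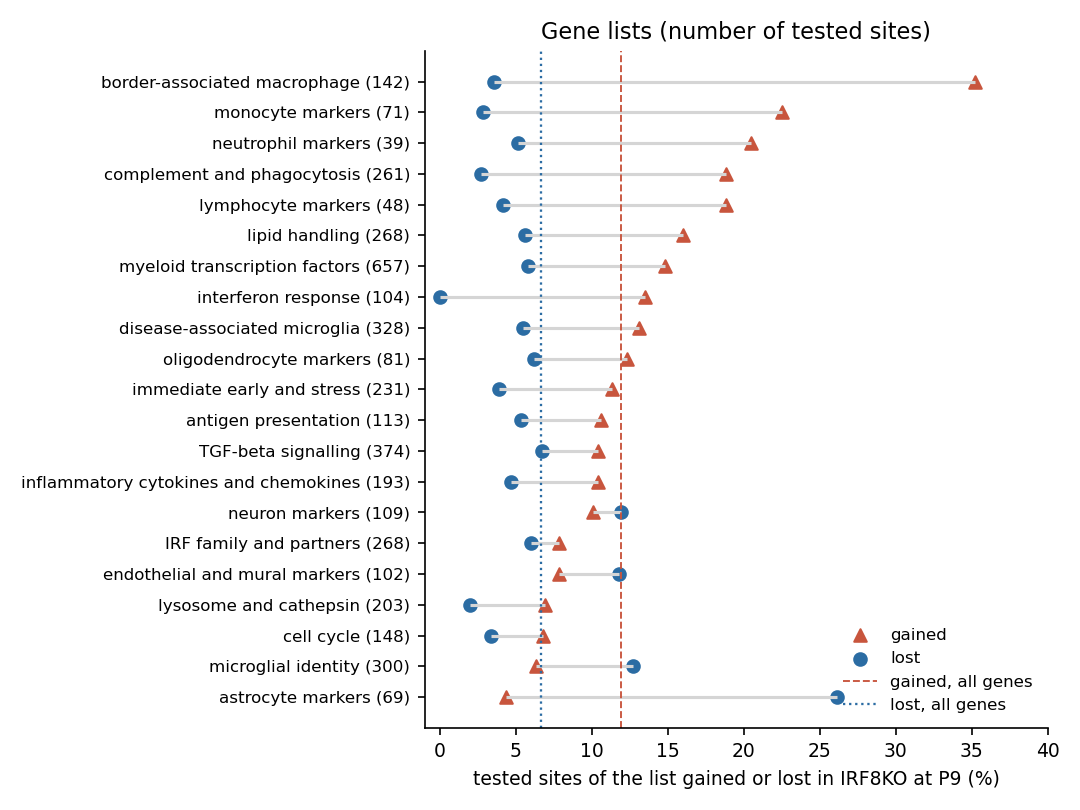
Percent of tested sites gained (red triangles) and lost (blue circles) in IRF8KO at P9 for each gene list, with the number of tested sites in brackets. The dashed and dotted lines are the shares over all genes, 11.9% gained and 6.67% lost; border-associated macrophage genes reach 35.2% gained and astrocyte markers 26.1% lost.

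The same sites were read in libraries the rule did not use, from IRF8KO and WT microglia at P14 (2 libraries each). Most strong sites had the same call there, and no test was made of this. All 434 strong gained sites were present in both IRF8KO libraries at P14, and 319 (73.5%) were missing from both WT libraries. Of all 30799 tested strong sites, 96.2% were present in both IRF8KO libraries at P14, and 1.41% were gained there by the same rule. All 426 strong lost sites were present in both WT libraries at P14, against 97.6% of the tested strong sites. For both kinds, presence alone is thus near the background. Of the 426, 372 (87.3%) were missing from both IRF8KO libraries, against 2.1% of the tested strong sites. No strong gained or lost site had the opposite call. In WT microglia at 10 months (2 libraries), 359 strong gained sites (82.7%) were missing from both libraries and 402 strong lost sites (94.4%) were present in both. Of all tested strong sites, 3.82% were missing from both and 92.8% present in both, so the share of lost sites present is near the background. The Phf11d, Gimap1, Ly86, E2f2, Vnn3 and Sirpb1b promoter sites had the same call at P14 and the Mmp8 site did not. With all peaks, 28.7% of gained sites were gained at P14, against 5.23% of all tested sites, and 50.9% of lost sites were lost, against 9.57%. The IRF8KO libraries at P14 were weaker, with −log10 p at rank 30000 of 26.55 and 22.83 against 61.77 and 68.18 in WT, the reverse of the order at P9.

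The share of sites with the same call at P14 was also read by list and by gene, without a test. At border-associated macrophage genes 22 of 50 gained sites were gained again (44.0%), against 28.0% over all genes. At microglial identity genes 29 of 38 lost sites were lost again (76.3%), against 51.2%, and 16 of these were at Sall1. At astrocyte markers 7 of 18 were lost again (38.9%) and at neuron markers 3 of 13 (23.1%). All 5 gained sites of Clec12a and all 5 lost sites of Cdh5 had the same call at P14. Of the genes with many sites, Kcnma1 kept 15 of 21 lost sites, P3h2 11 of 13 and Trps1 13 of 18 gained sites, while Lpp kept 2 of 16 and Rad51b 3 of 18.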

How the data were processed

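Members and gene lists were chosen with earlier results of these data known. Each of the 5 P9 libraries has its own deposited peak list; peaks were called by the authors for every sample separately. The tools named in the submitters' processing notes are bcl2fastq, Bowtie2, deepTools and MACS2 2.2.7.1, with the mm10 build. The authors deposited a fold enrichment (a ratio), a −log10 p and a −log10 q per peak, and, in bp, how far the summit lies from the start of its peak. The lowest −log10 p was 2.0. Read depth was not analysed here.

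Summits were taken in order of rank by −log10 p and dropped within 400 bp of an accepted site. Present meant a summit within 200 bp and missing none within 400 bp. Genes were RefSeq protein-coding bodies of GRCm38.p6, the assembly of mm10, within 100 kb; that table gives no exons. Promoter windows covered 17274 of 21631 genes, so location used gene ends. A genome sequence was not used here, and motifs were read only in promoters. Replicates are libraries, and spread between them may be technical. The calls were tested on simulated lists.

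Named genes were Irf8, the genes of the 12 best gained and 12 best lost sites by worst rank, the 10 genes with the most sites in each direction, up to 20 list genes per direction with a strong site, and up to 10 per direction with one within 1 kb of a start. Other list genes are given by counts and were chosen after their values were seen. Alternatives were equal list lengths, presence by the 30000 or 50000 best peaks, −log10 p of at least 5, other distances, interval overlap and leaving out each library. Python 3.11.15, numpy 2.4.6 and pandas 2.3.3 were used.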

Additional observations from a re-analysis of the deposited data

Results flagged for a closer look

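Of the 14741 sites gained at P9, 307 were lost at P14 (2.08%), against 9.57% of all tested sites. Of the 8642 sites lost at P9, 562 were gained at P14 (6.5%), against 5.23% of all tested sites. At these sites every library moved the opposite way. The first share was below that of all tested sites and the second was near it. The difference between ages was not tested. None of these sites was strong: the best had worst ranks of 54270 and 59241, and 259 and 466 of them lay beyond rank 100000. Chromosome Y lies outside the comparison, and the P9 lists held between 8 and 17 summits on it.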

How the results depend on the processing

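No paired analysis was possible because the labels name no pairs of IRF8KO and WT libraries. The calls come from presence and absence and not from a fitted test. With presence by the 30000 best peaks, 434 sites were gained and 426 lost, 5.07% and 2.11% of them lay within 1 kb of a gene end, and 73.5% and 87.3% had the same call at P14. With the 50000 best, 1315 were gained and 1031 lost. With lists of equal length, 29.8% of gained and 52.0% of lost sites had the same call at P14. Leaving out 1 library at a time gave 17780 to 21438 gained sites, 9825 to 42142 lost sites, 6.39% to 7.4% of gained and 4.77% to 7.08% of lost sites within 1 kb of a gene end, and 22.2% to 24.6% and 12% to 49.8% with the same call at P14. The highest lost count, and the lowest share of lost sites with the same call, came without WT replicate 2; without replicate 1 they were 25290 and 21.9%. Then 1 library stood for WT. The number of strong sites ran from 488 to 638 gained and from 464 to 558 lost. Of 42 list shares, 22 stayed on the same side of that of all genes under every alternative run for them. Why these counts moved was not tested beyond the fewer libraries that each call then needs. Read depth was not analysed here, so its limits at weak ranks are not given.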
